A study of Mus musculus with 12 samples.

Results

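The 10 genes described here encode the core of insulin and insulin-like growth factor 1 (IGF1) signalling: the ligand Igf1, the receptors Insr and Igf1r, the receptor substrates Irs1 and Irs2, the phosphoinositide 3-kinase (PI3K) subunit Pik3r1, the kinases Akt1 and Akt2, and the transcription factors Foxo1 and Foxo3. They were taken by name from the deposited table, in which each has 1 row, and make up 10 of its 29564 genes. All 10 of 10 passed the filter on low counts and were among the 14333 genes tested. Messenger RNA of the left ventricle was sequenced from 12 mice, with 1 library per mouse and 4 mice in each of 3 groups. All mice were labelled C57BL6 (C57BL/6J in the study's methods) with a WT genotype. Control-Veh mice were labelled non-failing and received vehicle (libraries C1 to C4). HFpEF-Veh mice carried a model of heart failure in which the ejection fraction is preserved (HFpEF), set up by feeding a high-fat diet (HFD) together with L-NAME, an inhibitor of nitric oxide synthases, and received vehicle (V1 to V4). HFpEF-TYA-018 mice had that model and received TYA-018, an oral inhibitor of the deacetylase HDAC6, at 15 mg/kg (T1 to T4). The vehicle was a mixture of DMSO, PEG-300 and water, which all groups received. The series title gives a single dose, whereas the treatment text in the labels gives daily dosing over weeks, and the title was followed. The paper's single-dose RNA-Seq experiment took hearts hours after the dose, when their structure and function had not yet improved. In the study's methods, the group beside this model was fed standard chow. There was no control group given TYA-018, so its values apply to hearts of the model only. The labels gave neither age nor sex, and the study's methods describe males.

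Insulin and IGF1 bind receptor tyrosine kinases, which phosphorylate the IRS adaptors and so recruit PI3K. PI3K makes the lipid that brings AKT to the membrane, where AKT promotes glucose uptake through the transporter GLUT4, drives growth through mTOR complexes, and keeps FOXO factors out of the nucleus. In the heart the pathway is known for its part in fuel choice and in growth of cardiomyocytes, and FOXO factors can in turn activate genes for the insulin receptor and IRS proteins when insulin signalling is low.

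The estimated counts summed to 6.12e+07 to 8.39e+07 per library, and the counts of the members ran from 398 (Irs2) to 10301 (Akt1). Mitochondrially encoded genes made up 38.8% of the total in Control-Veh, 45.1% in HFpEF-Veh and 38.9% after TYA-018 (group means). The median effective length of a gene, relative to its mean over the libraries and on the log2 scale, averaged -0.01 for Control-Veh, 0.08 for HFpEF-Veh and -0.07 after TYA-018. Of 44 tested cell type markers, 26 were called in HFpEF-Veh relative to Control-Veh (18 higher, 8 lower) and 20 after TYA-018 against HFpEF-Veh (3 higher, 17 lower). The tissue label fitted the markers: 8 cardiomyocyte markers summed to 24838 to 37673 CPM (counts scaled by TMM to 1e+06 per library) in every library, and 3 atrial markers to at most 2.87 CPM. All 5 red cell markers rose in HFpEF-Veh (median log2 change 2.14) and fell after TYA-018 (-1.46), their sum being 2020 ± 345 CPM in Control-Veh, 8203 ± 4159 in HFpEF-Veh and 2911 ± 569 after TYA-018 (SD, n = 4). Of 4 liver-type secreted protein markers 3 fell in HFpEF-Veh, from a sum of 25.2 to 73.9 CPM to one of 2.31 to 12.7 CPM, and the sum was 2.98 to 63.8 CPM after TYA-018. None of these 9 markers was at 0 throughout, and their part in the members' values was not tested. Bulk values cannot tell fewer cells of a type from less RNA per cell.

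In hearts of the model, messenger RNA of Insr and Igf1r was lower and that of Foxo1 was higher than in Control-Veh by edgeR on counts. The settings under which these calls were lost are given with each gene. Insr fell by 24.8%, Igf1r fell by 17.7% and Foxo1 rose 1.31-fold. These 3 of 10 members were called, meaning an edgeR p under 0.05 after Benjamini-Hochberg adjustment, where 21.2% of all tested genes were called (10.9% higher and 10.3% lower), so the share of members was near the background. After TYA-018, Akt2 and Insr were higher and Igf1 was lower than in HFpEF-Veh, again 3 of 10 members against a background of 19.3% (8.93% higher and 10.4% lower). Akt2 rose 1.21-fold, Insr rose 1.14-fold and Igf1 fell by 24.9%. Between HFpEF-TYA-018 and Control-Veh, 1 of 10 members was called against a background of 5.86% (3.12% higher and 2.74% lower), namely Igf1r, which fell by 24.0%. The median log2 change of the 10 members was 0.10, -0.15 and 0.03 in the 3 comparisons in that order, beside -0.01, 0.00198 and -0.02 over all tested genes. The groups did not overlap for 3 members (Insr, Akt2, Foxo1) in the first comparison, where 23.5% of all tested genes did not, for 2 (Insr, Akt2) in the second (25.1% of all) and for 3 (Insr, Igf1r, Igf1) in the last (14.8% of all). The first and the second comparison share the HFpEF-Veh libraries, so opposite directions in them are not independent of each other.

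**Figure D1:**
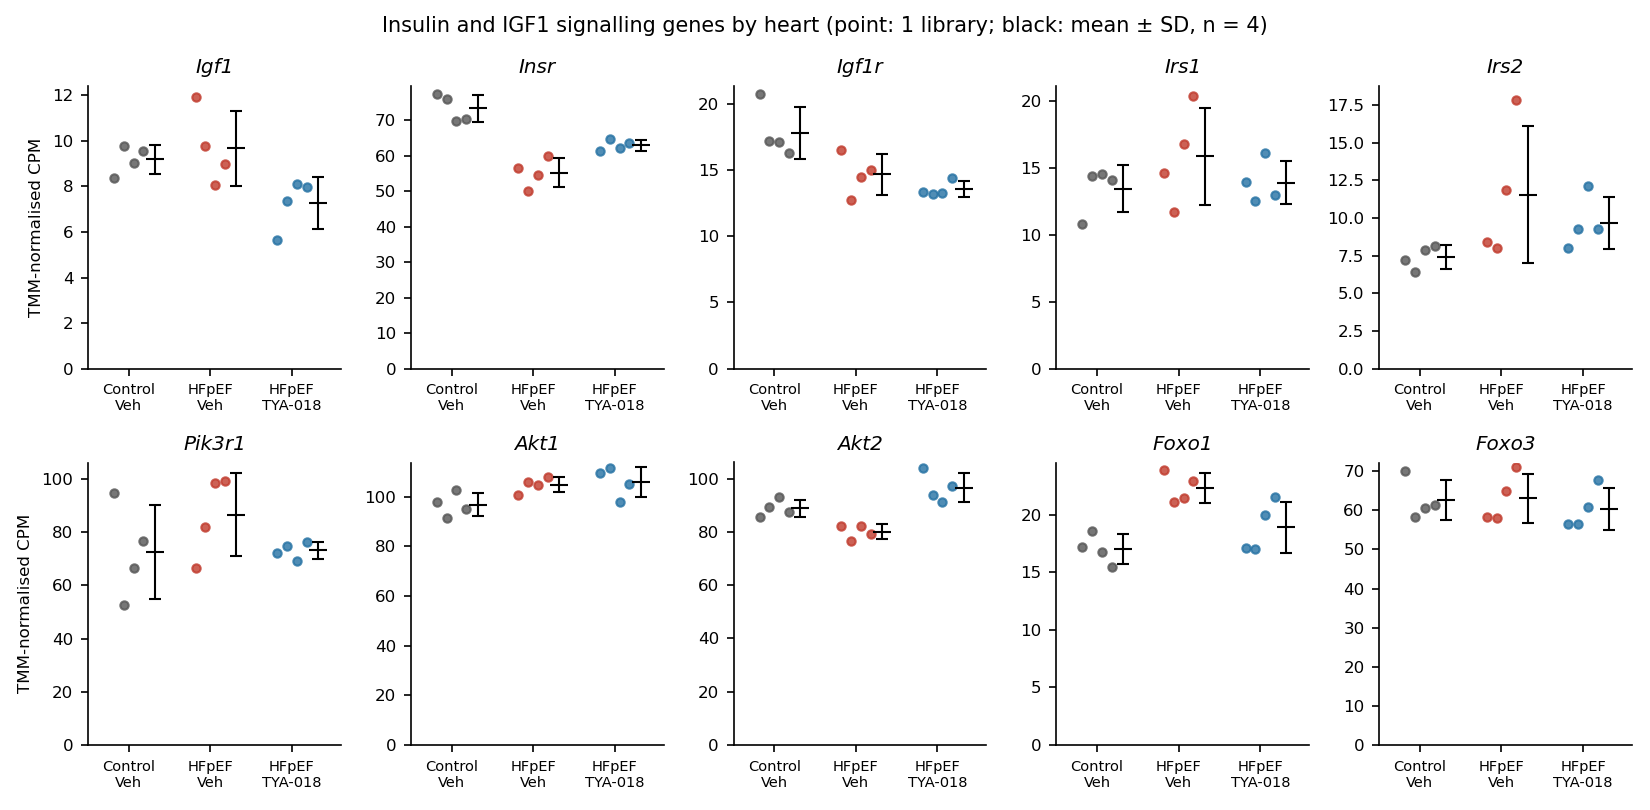
Each panel plots 1 gene, with the TMM-normalised CPM of each library on the y axis (from 0) and the 3 groups on the x axis. Points are single libraries and the black bars are mean ± SD (n = 4). Insr in HFpEF-Veh (49.9 to 59.8 CPM) lay below every Control-Veh library, Akt2 in HFpEF-Veh (76.7 to 82.4 CPM) lay below every library of the other groups, and Foxo1 in HFpEF-Veh lay above every Control-Veh library.

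**Figure D2:**
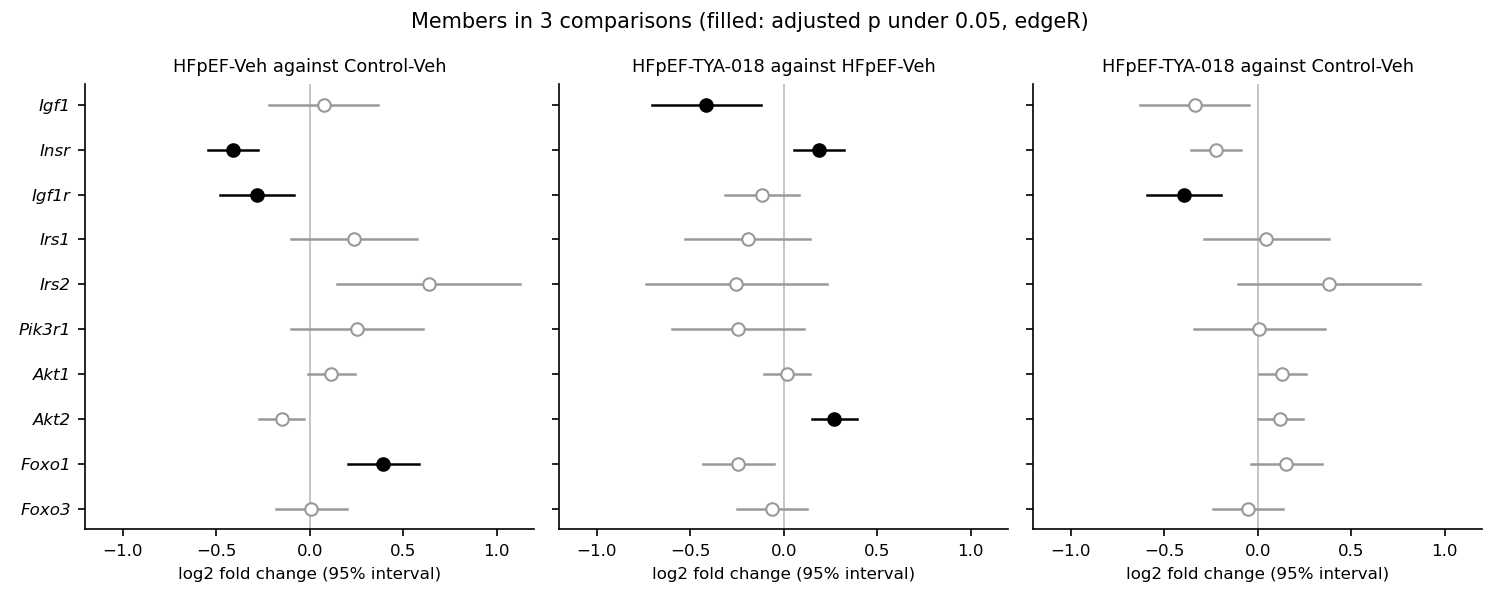
For each of the 10 genes, the x axis gives the edgeR log2 fold change with its 95% interval in the 3 comparisons, and filled points mark an adjusted p under 0.05. The filled points are Insr, Igf1r and Foxo1 on the left, Insr, Igf1 and Akt2 in the middle, and Igf1r on the right.

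Igf1 encodes the growth factor that binds the IGF1 receptor, and lies on chromosome 10 from 87858265 to 87937042 on the plus strand (GRCm38, GENCODE M21), with the antisense gene Igf1os across it. Its level was 8.38, 9.79, 9.04 and 9.54 CPM in C1 to C4, 11.9, 9.78, 8.07 and 8.97 CPM in V1 to V4, and 5.64, 7.38, 8.12 and 7.98 CPM in T1 to T4. HFpEF-TYA-018 was below Control-Veh in every library, and 3 of its 4 libraries were below every HFpEF-Veh library, with T3 just inside. Means were 9.19 ± 0.622, 9.68 ± 1.64 and 7.28 ± 1.14 CPM (SD, n = 4) in the 3 groups in that order. The log2 fold change was 0.08 ± 0.13 (SE) in HFpEF-Veh relative to Control-Veh (edgeR adjusted p = 0.727). In HFpEF-TYA-018 against HFpEF-Veh it was -0.41 ± 0.13 (edgeR adjusted p = 0.0491), and against Control-Veh -0.34 ± 0.13 (edgeR adjusted p = 0.160). The second of these calls held in only 1 of 8 fits that each left out 1 library: it was lost without V1, V2, V4, T1, T2, T3 or T4 (edgeR adjusted p 0.0507 to 0.133). On log2(TPM + 1) the difference was 0.017, in the other direction and not called by limma. Fibroblasts and macrophages are known sources of Igf1, and 5 of 7 fibroblast markers and 3 of 5 tested macrophage markers fell in the same comparison. In HFpEF-Veh relative to Control-Veh, where Igf1 was not called, 4 of 7 and 4 of 5 of these markers rose. The summed fibroblast markers were 460 to 673 CPM in Control-Veh, 671 to 945 in HFpEF-Veh and 455 to 648 in HFpEF-TYA-018. The summed macrophage markers were 59.1 to 74.2, 93.1 to 115 and 62.2 to 72.0 CPM in that order, with 0 markers of either list at 0 throughout. Their part in the result was not tested.

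Insr encodes the insulin receptor and lies on chromosome 8 from 3122061 to 3279617 on the minus strand. It measured 77.4, 75.9, 69.8 and 70.4 CPM in C1 to C4, 56.5, 49.9, 54.6 and 59.8 CPM in V1 to V4, and 61.3, 64.8, 62.0 and 63.6 CPM in T1 to T4. The 3 groups did not overlap: every HFpEF-Veh library was lowest, every HFpEF-TYA-018 library lay between, and every Control-Veh library was highest. The difference HFpEF-Veh relative to Control-Veh was -0.41 ± 0.06 on the log2 scale (95% interval -0.54 to -0.28, edgeR adjusted p = 0.00132), and it passed the threshold in all 8 fits that left out 1 library. HFpEF-TYA-018 was above HFpEF-Veh by 0.19 ± 0.06 (interval 0.06 to 0.32, edgeR adjusted p = 0.0494). That second call was lost without V1, V2, V3, T1, T2, T3 or T4 (edgeR adjusted p 0.0767 to 0.124) and held without V4. Against Control-Veh, HFpEF-TYA-018 gave -0.22 ± 0.06 (edgeR adjusted p = 0.0545), which missed the threshold although the groups did not overlap. The effective length that the authors' quantification gave Insr moved with the groups too, at 15788 to 18304 bases in Control-Veh, 18950 to 21010 in HFpEF-Veh and 14041 to 17918 after TYA-018. With effective lengths as an offset in edgeR the log2 differences were -0.51 (adjusted p = 0.00666) and 0.38 (adjusted p = 0.0247).

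Igf1r encodes the IGF1 receptor, on chromosome 7 from 67952827 to 68233668 on the plus strand. Levels were 20.8, 17.2, 17.1 and 16.3 CPM in C1 to C4, 16.6, 12.8, 14.5 and 15.0 CPM in V1 to V4, and 13.3, 13.2, 13.3 and 14.5 CPM in T1 to T4. HFpEF-TYA-018 lay below every Control-Veh library, while V1 overlapped the lowest Control-Veh library. The log2 fold change was -0.28 ± 0.09 in HFpEF-Veh relative to Control-Veh (edgeR adjusted p = 0.0454) and -0.40 ± 0.09 after TYA-018 against Control-Veh (edgeR adjusted p = 0.0288). Between HFpEF-TYA-018 and HFpEF-Veh it was -0.11 ± 0.09 (interval -0.31 to 0.08, edgeR adjusted p = 0.412). The first call was lost without C1, C2, C3, V2, V3 or V4 (edgeR adjusted p 0.0702 to 0.115), and the other without C3, T1, T2 or T3 (edgeR adjusted p 0.0508 to 0.0780). On log2(TPM + 1) both were lost, at -0.11 (limma adjusted p = 0.150) and -0.0070 (limma adjusted p = 0.940). A pseudocount of 1 shrinks changes at so low a TPM, which averaged 0.258 in Control-Veh, 0.162 in HFpEF-Veh and 0.253 after TYA-018. With a pseudocount of 0.1 limma did not call Igf1r in either comparison. So Insr was called in both of the comparisons with HFpEF-Veh, and Igf1r in both of the comparisons with Control-Veh. Some of these calls lay close to the threshold, and no test compared the receptors with each other. In HFpEF-TYA-018 against HFpEF-Veh, Igf1r turned to the direction of Insr with effective lengths as an offset (0.17, edgeR adjusted p = 0.361). It also did so on log2(TPM + 1) (0.11, limma adjusted p = 0.0730). Of 8 cardiomyocyte markers, 5 fell and 1 rose in HFpEF-Veh relative to Control-Veh, their summed level being 26791 to 37673 CPM in Control-Veh, 24838 to 26498 in HFpEF-Veh and 28188 to 31165 after TYA-018, and 3 rose in HFpEF-TYA-018 against HFpEF-Veh. None of the 8 was at 0, and their part in the receptor values was not tested.

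Irs1 and Irs2 encode the adaptor proteins that both receptors phosphorylate; Irs1 lies on chromosome 1 from 82233101 to 82291416 and Irs2 on chromosome 8 from 10984681 to 11008458, both on the minus strand. Irs1 had 10.8, 14.4, 14.6 and 14.1 CPM in C1 to C4, 14.6, 11.7, 16.8 and 20.4 CPM in V1 to V4, and 13.9, 12.5, 16.2 and 13 CPM in T1 to T4, and its groups overlapped in all 3 comparisons. Irs2 had 7.20, 6.43, 7.90 and 8.17 CPM in C1 to C4, 8.41, 8.02, 11.9 and 17.9 CPM in V1 to V4, and 8.03, 9.29, 12.1 and 9.30 CPM in T1 to T4. V3 and V4 were the highest HFpEF-Veh libraries for both genes, and V2 overlapped Control-Veh. The log2 fold change of Irs2 in HFpEF-Veh relative to Control-Veh was 0.64 ± 0.22 (interval 0.15 to 1.12, edgeR adjusted p = 0.0622), the largest among the members in size and also the one with the widest interval. It passed the threshold without V1 (0.76, edgeR adjusted p = 0.0388) or without V2 (0.78, edgeR adjusted p = 0.0338), and was 0.35 without V4. Irs1 gave 0.24 ± 0.15 (edgeR adjusted p = 0.292). Against HFpEF-Veh, HFpEF-TYA-018 gave -0.25 ± 0.22 for Irs2 (edgeR adjusted p = 0.460) and -0.19 ± 0.15 for Irs1 (edgeR adjusted p = 0.415).

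The sequence just upstream of the Irs1 and Irs2 starts is shown because both genes are textbook targets of FOXO factors, and Foxo1 was one of the called members. RefSeq upstream sequences (GRCm38.p6) were at hand for 9 of the 10 members, 14 sequences in all, and none was at hand for Insr. The 240 bases from 250 to 11 before each RefSeq start were searched on both strands. The word TGTTTTG, an insulin response type of forkhead motif, is in capitals (Irs1 chr1:82291450-82291689 and Irs2 chr8:11008940-11009179, minus strand, 5′ to 3′).
Irs1: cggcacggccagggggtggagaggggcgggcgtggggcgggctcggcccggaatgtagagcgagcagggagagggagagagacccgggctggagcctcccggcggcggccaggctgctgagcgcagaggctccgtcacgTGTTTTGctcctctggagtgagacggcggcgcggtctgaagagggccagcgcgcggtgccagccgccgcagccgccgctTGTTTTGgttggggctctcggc
Irs2: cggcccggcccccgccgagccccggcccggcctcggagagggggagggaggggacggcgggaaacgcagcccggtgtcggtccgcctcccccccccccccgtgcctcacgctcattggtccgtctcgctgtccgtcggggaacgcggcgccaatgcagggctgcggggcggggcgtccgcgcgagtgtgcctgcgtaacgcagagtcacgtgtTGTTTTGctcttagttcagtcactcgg
Irs1 held 2 matches, starting 111 and 32 bases before the RefSeq start, and Irs2 held 1 match, starting 37 bases before its RefSeq start. The GENCODE start of Irs2 differs, at 11008458, whereas the window shown begins at 11008940. Among 32851 RefSeq upstream windows of this length, 5.46% held the word and 0.408% held it 2 or more times. The E-box word CACGTG began 115 bases before the Irs1 start, sharing 2 bases with the first match, and 44 bases before the Irs2 start, and 5.69% of windows held it. Among the other members searched, no window held TGTTTTG, and Akt1 alone held the related word TGTTTAC, found in 3.06% of windows. Insr was not searched. These are matches of letters only.

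Pik3r1 encodes the p85 alpha family of regulatory subunits of PI3K, on chromosome 13 from 101680563 to 101768217 on the minus strand. Its level was 94.6, 52.6, 66.7 and 76.8 CPM in C1 to C4, 66.4, 82.1, 98.6 and 99.3 CPM in V1 to V4, and 72.0, 74.9, 69.3 and 76.4 CPM in T1 to T4. Control-Veh spread widely, with C1 close to the highest HFpEF-Veh libraries and C2 below every other library. HFpEF-Veh relative to Control-Veh gave 0.25 ± 0.16 (interval -0.10 to 0.61, edgeR adjusted p = 0.286) and HFpEF-TYA-018 against HFpEF-Veh gave -0.24 ± 0.16 (edgeR adjusted p = 0.319).

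Akt1 and Akt2 encode kinases that act downstream of PI3K, Akt2 being the form best known for insulin-stimulated glucose uptake. Akt1 lies on chromosome 12 from 112653821 to 112674884 (minus strand) and Akt2 on chromosome 7 from 27591552 to 27640826 (plus strand). Akt2 had 85.5, 89.3, 93.2 and 87.4 CPM in C1 to C4, 82.3, 76.7, 82.4 and 79.1 CPM in V1 to V4, and 104, 94.0, 91.4 and 97.1 CPM in T1 to T4. Every HFpEF-Veh library was below every library of the other groups. HFpEF-TYA-018 exceeded HFpEF-Veh by 0.27 ± 0.06 on the log2 scale (interval 0.15 to 0.39, edgeR adjusted p = 0.00709), and this call held in all 8 fits that left out 1 library. HFpEF-Veh relative to Control-Veh gave -0.15 ± 0.06 (edgeR adjusted p = 0.0717), which passed without C1 (-0.17, edgeR adjusted p = 0.0480). HFpEF-TYA-018 against Control-Veh gave 0.12 ± 0.06 (edgeR adjusted p = 0.221). With effective lengths as an offset the Akt2 difference between HFpEF-TYA-018 and HFpEF-Veh was 0.29 with an adjusted p of 0.492 in edgeR, and its effective length ranged from 1854 bases in T4 to 3966 in C4. Of the 31-base words in its transcripts, 13.3% were shared with the pseudogene Akt2-ps or with Akt1, so the split of reads is uncertain, though the table gave Akt2-ps at most 18 estimated counts in any library against at least 4549 for Akt2.

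Akt1 was steadier. It had 98.1, 91.5, 103 and 95 CPM in C1 to C4, 101, 106, 105 and 108 CPM in V1 to V4, and 109, 112, 98.0 and 105 CPM in T1 to T4, and the groups overlapped in all 3 comparisons. The log2 fold changes were 0.11 ± 0.06 (edgeR adjusted p = 0.175), 0.02 ± 0.06 (edgeR adjusted p = 0.862) and 0.13 ± 0.06 (edgeR adjusted p = 0.199) in the same 3 comparisons as above. Within a library, where scaling cancels, the ratio of Akt2 to Akt1 estimated counts averaged 0.919 ± 0.0432 in Control-Veh, 0.765 ± 0.0439 in HFpEF-Veh and 0.911 ± 0.0484 after TYA-018 (SD, n = 4). The ratios in HFpEF-Veh (0.724 to 0.817) lay below all others (0.841 to 0.976). Effective length does not cancel in them, and that of Akt2 ranged from 1854 bases in T4 to 3966 in C4. By deposited TPM, Akt2 and Akt1 were 7.27 and 8.74 in V4, 7.68 and 10.7 in C4, and 9.11 and 14.5 in T2, so on that scale the ratios overlapped. With effective lengths as an offset, Akt2 in HFpEF-Veh relative to Control-Veh was 0.045 on the log2 scale (edgeR adjusted p = 0.931). These ratios are a description with no test.

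Foxo1 and Foxo3 encode forkhead transcription factors that AKT holds in the cytoplasm; Foxo1 lies on chromosome 3 from 52268336 to 52353221 (plus strand) and Foxo3 on chromosome 10 from 42181841 to 42276755 (minus strand). Foxo1 had 17.3, 18.6, 16.8 and 15.4 CPM in C1 to C4, 23.9, 21.2, 21.4 and 23.0 CPM in V1 to V4, and 17.1, 17.0, 20.0 and 21.5 CPM in T1 to T4. Every HFpEF-Veh library was above every Control-Veh library, and only T4 reached into the HFpEF-Veh range. HFpEF-Veh exceeded Control-Veh by 0.39 ± 0.09 on the log2 scale (interval 0.20 to 0.58, edgeR adjusted p = 0.00894), a call that held in all 8 fits that left out 1 library. It was lost with effective lengths as an offset (0.30, edgeR adjusted p = 0.127), on log2(TPM + 1) (0.035, limma adjusted p = 0.809) and on log2(TPM + 0.1) (0.073, limma adjusted p = 0.793). HFpEF-TYA-018 against HFpEF-Veh gave -0.24 ± 0.09 (edgeR adjusted p = 0.0717), and -0.31 without T4 (edgeR adjusted p = 0.0269). Endothelial cells carry much Foxo1, and 3 of 6 endothelial markers rose in HFpEF-Veh relative to Control-Veh and 3 fell in HFpEF-TYA-018 against HFpEF-Veh, the summed level being 711 to 816 CPM in Control-Veh, 869 to 1050 in HFpEF-Veh and 684 to 853 after TYA-018, with none of the 6 at 0. Their part in the result was not tested.

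Foxo3 was called in none of the 3 comparisons by edgeR. It had 70.0, 58.4, 60.7 and 61.5 CPM in C1 to C4, 58.3, 58.0, 65.0 and 71.0 CPM in V1 to V4, and 56.5, 56.4, 60.9 and 67.9 CPM in T1 to T4, and the log2 fold changes were 0.01 ± 0.09 (edgeR adjusted p = 0.952), -0.06 ± 0.09 (edgeR adjusted p = 0.655) and -0.05 ± 0.09 (edgeR adjusted p = 0.778). On log2(TPM + 1), limma called it higher in HFpEF-TYA-018 than in HFpEF-Veh (0.40, adjusted p = 0.0332), on a scale where the median of all tested genes was shifted by 0.17. The ratio of Foxo1 to Foxo3 estimated counts was 0.247 to 0.318 in Control-Veh, 0.324 to 0.409 in HFpEF-Veh and 0.302 to 0.329 after TYA-018, so HFpEF-Veh was above Control-Veh in every library and overlapped HFpEF-TYA-018. Insr over Igf1r was 3.73 to 4.40, 3.41 to 3.99 and 4.40 to 4.89 in the 3 groups, and Irs2 over Irs1 was 0.445 to 0.667, 0.575 to 0.876 and 0.576 to 0.751. The window before the Foxo1 start is shown for its 3 CCAAT boxes, a motif bound by the factor NF-Y, here in capitals and read as ATTGG since they lie on the other strand (chr3:52268087-52268326, plus strand, 5′ to 3′).
Foxo1: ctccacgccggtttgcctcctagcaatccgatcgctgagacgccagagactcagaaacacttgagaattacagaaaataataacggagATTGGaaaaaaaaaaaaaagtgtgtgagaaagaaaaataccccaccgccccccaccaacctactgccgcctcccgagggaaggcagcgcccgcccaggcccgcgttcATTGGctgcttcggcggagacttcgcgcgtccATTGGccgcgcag
The matches began 162, 55 and 23 bases before the start; 33% of the 32851 windows held the word and 2.62% held it 3 or more times. Irs2 held 2 matches and Pik3r1 and Igf1 held 1 each. The windows of Igf1 and Foxo3, and a window of Akt2, overlapped GENCODE exons of the same gene.

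**Figure D3:**
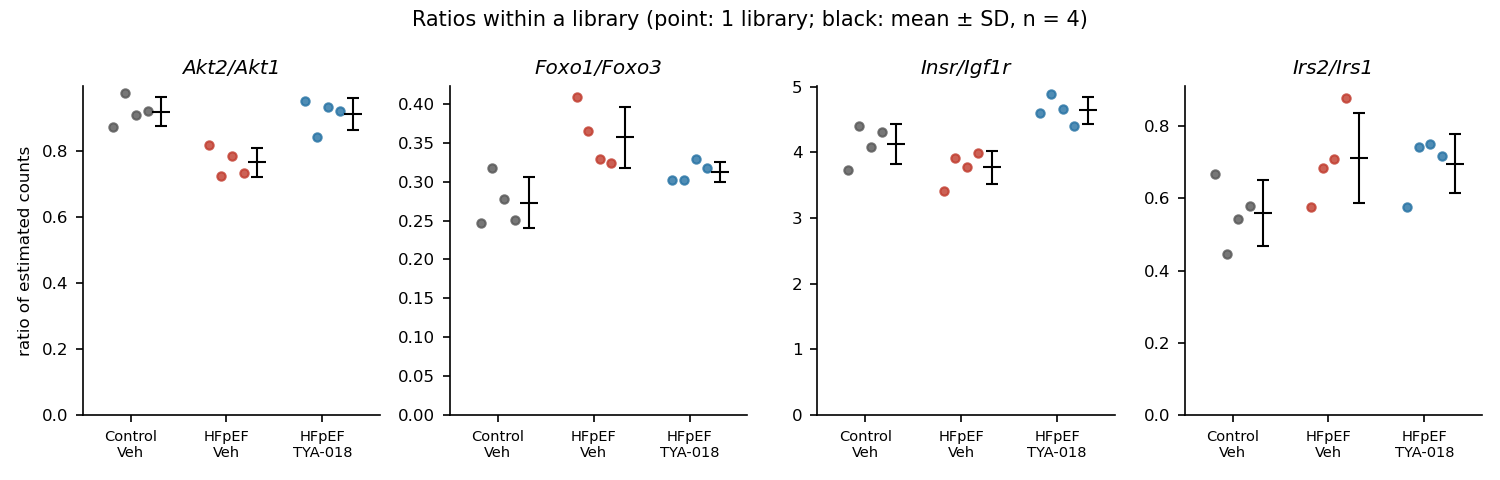
The y axis gives the ratio of estimated counts of 2 members within a library (from 0), with the 3 groups on the x axis, points for single libraries and black bars for mean ± SD (n = 4). The Akt2/Akt1 count ratios of HFpEF-Veh, 0.724 to 0.817, lie below every library of the other groups. Effective length does not cancel in these ratios, and by deposited TPM the Akt2/Akt1 ratios of the groups overlap.

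Levels of different members were set side by side per length. By deposited TPM in Control-Veh, Akt1 (10.8) and Akt2 (9.00) were highest, followed by Pik3r1 (1.84), Igf1 (1.77), Foxo3 (1.69), Insr (1.46), Foxo1 (0.690), Irs2 (0.290), Irs1 (0.286) and Igf1r (0.258). By CPM per kilobase of the longest annotated transcript, an order chosen after the data had been seen, Akt1 (36.0) and Akt2 (19.6) again led, and Pik3r1 (10.2), Foxo3 (9.15), Insr (7.84), Foxo1 (1.96), Igf1r (1.57), Irs1 (1.47), Igf1 (1.30) and Irs2 (1.17) followed. On the second scale the neighbours Pik3r1 and Foxo3, Foxo1 and Igf1r, Igf1r and Irs1, Irs1 and Igf1, and Igf1 and Irs2 overlapped between Control-Veh libraries, and the other neighbours did not. Igf1 moved most, from place 4 to place 9, its mean effective length being 1825 bases against a longest transcript of 7052. For Insr the mean effective length in Control-Veh was 17514 bases against 9355, and for Igf1r 24151 against 11409, which sets the TPM of these genes apart from their CPM per kilobase.

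Of the 60 other pathway genes listed, 57 were tested; Igfbp2 did not pass the filter on low counts, and Cbl and Tsc2 were listed at 0 in all libraries. In HFpEF-Veh relative to Control-Veh 16 of the 57 were called (21.2% of all tested genes), 10 higher and 6 lower, and in HFpEF-TYA-018 against HFpEF-Veh 16 were called (19.3% of all), 6 higher and 10 lower. In HFpEF-TYA-018 against Control-Veh there were 5 (5.86% of all), of which 2 were higher and 3 lower. The median log2 change of the list was 0.04, -0.08 and -0.04 in the 3 comparisons, beside the values for all tested genes given above. On log2(TPM + 1), limma called 9 higher and 0 lower in HFpEF-TYA-018 against HFpEF-Veh. In HFpEF-Veh relative to Control-Veh it called 0 higher and 1 lower, so neither Sgk1 call below was made on that scale. With effective lengths as an offset, edgeR called 2 higher and 3 lower in HFpEF-Veh relative to Control-Veh. In HFpEF-TYA-018 against HFpEF-Veh it called 1 higher and 3 lower, so at most 1 of the pathway rises after TYA-018 named below was called there. The kinase Sgk1, which PI3K activates alongside AKT, had the largest rise on the list in HFpEF-Veh, from 73.5 ± 10.1 to 139 ± 12.1 CPM (0.92 ± 0.10, edgeR adjusted p = 0.000412), and fell after TYA-018 to 78.2 ± 5.21 CPM (-0.83 ± 0.10, edgeR adjusted p = 0.00068). Of 3 genes of GLUT4 trafficking, 2 fell in HFpEF-Veh and rose after TYA-018. Slc2a4, which encodes GLUT4, fell from 256 ± 16.6 to 200 ± 7.09 CPM (-0.35 ± 0.06, edgeR adjusted p = 0.00346) and was 246 ± 14.2 CPM after TYA-018 (0.30 ± 0.06, edgeR adjusted p = 0.00935). Tbc1d4, the AKT substrate AS160 that holds GLUT4 inside the cell, fell by 0.94 on the log2 scale in HFpEF-Veh (edgeR adjusted p = 0.000975) and rose by 0.43 after TYA-018 (edgeR adjusted p = 0.0375), the second call being lost without V2, V3, V4, T1, T2 or T3 (edgeR adjusted p 0.0729 to 0.114). Its relative Tbc1d1 was called in neither comparison, at 0.13 ± 0.10 (edgeR adjusted p = 0.382) and -0.16 ± 0.10 (edgeR adjusted p = 0.289). The sums of cardiomyocyte, fibroblast, macrophage and endothelial markers given above moved in these same comparisons, and their part in the pathway values was not tested.

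Of 9 tested adaptors 2 were called in HFpEF-Veh and 4 after TYA-018. Of all tested genes, 21.2% were called in the first of these comparisons and 19.3% in the second, which also stand beside the other roles below. Grb10, an adaptor that restrains the insulin and IGF1 receptors, rose from 44.5 ± 4.71 to 57.6 ± 2.42 CPM in HFpEF-Veh (0.37 ± 0.08, edgeR adjusted p = 0.00716) and fell to 43.7 ± 3.33 CPM after TYA-018 (-0.40 ± 0.08, edgeR adjusted p = 0.00605). Its relative Grb14 rose after TYA-018 (0.50 ± 0.06, edgeR adjusted p = 0.000854), so 2 of 9 tested adaptors rose and 2 fell there, and in HFpEF-Veh 2 rose, the other being Ptpn11, the phosphatase SHP2 (0.41 ± 0.12, edgeR adjusted p = 0.0289), lost without C2, C3, C4, V3 or V4 (edgeR adjusted p 0.0656 to 0.0857). Of 13 phosphatases and inhibitors, 4 rose and 1 fell in HFpEF-Veh. The PI3K inhibitor Pik3ip1 was the one that fell (-0.41 ± 0.09, edgeR adjusted p = 0.00713). After TYA-018, 3 of the 13 fell and 1 rose, the rise being that of Pik3ip1 (0.43 ± 0.09, edgeR adjusted p = 0.00700). With effective lengths as an offset in edgeR the Pik3ip1 differences turned to 0.18 and -0.03, and on log2(TPM + 1) those of Grb10 turned to -0.05 and 0.18, none of them called.

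Of 7 kinases downstream of PI3K, 3 were called in HFpEF-Veh (2 higher, 1 lower), where 21.2% of all tested genes were. After TYA-018 2 of the 7 were called, both lower, where 19.3% of all were. Prkcz, an atypical protein kinase C, fell in HFpEF-Veh (-0.78 ± 0.20, edgeR adjusted p = 0.0178). Of 11 tested mTOR genes, 2 fell in HFpEF-Veh, Rictor (-0.23 ± 0.07, edgeR adjusted p = 0.0437) and Rps6kb2 (-0.32 ± 0.11, edgeR adjusted p = 0.0499), and 1 rose after TYA-018, Rptor (0.25 ± 0.06, edgeR adjusted p = 0.0123). Mtor itself gave -0.05 ± 0.06 (edgeR adjusted p = 0.585) and 0.11 ± 0.06 (edgeR adjusted p = 0.198). Among the 8 fits each, Rictor passed without V1 and was lost without any other library (edgeR adjusted p 0.0604 to 0.117), and Rps6kb2 passed without C1 or V4 and was lost without the others (edgeR adjusted p 0.0918 to 0.139). The other IGF ligand, Igf2, gave -0.03 ± 0.10 (edgeR adjusted p = 0.867) and -0.30 ± 0.10 (edgeR adjusted p = 0.0657). Of the binding proteins, Igfbp7 rose in HFpEF-Veh (0.57 ± 0.10, edgeR adjusted p = 0.00318), and Igfbp4 (-0.37 ± 0.11, edgeR adjusted p = 0.0338) and Igfbp3 (-0.34 ± 0.11, edgeR adjusted p = 0.0472) fell after TYA-018. Igfbp4 was lost without V1, V2, T1, T2 or T3 (edgeR adjusted p 0.0685 to 0.0993) and Igfbp3 without V1, V2, V4, T1, T2, T3 or T4 (edgeR adjusted p 0.0586 to 0.130). Among 6 other PI3K subunits, Pik3r3 rose in HFpEF-Veh (0.35 ± 0.10, edgeR adjusted p = 0.0249) and Pik3cb fell after TYA-018 (-0.31 ± 0.08, edgeR adjusted p = 0.0184). Pik3r3 was lost without C4, V1 or V3 (edgeR adjusted p 0.0521 to 0.0751) and Pik3cb without V3, T1 or T2 (edgeR adjusted p 0.0524 to 0.0564). On log2(TPM + 1) the falls of Igfbp3 and Pik3cb after TYA-018 turned to 0.16 and 0.092, neither of them called by limma.

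**Figure D4:**
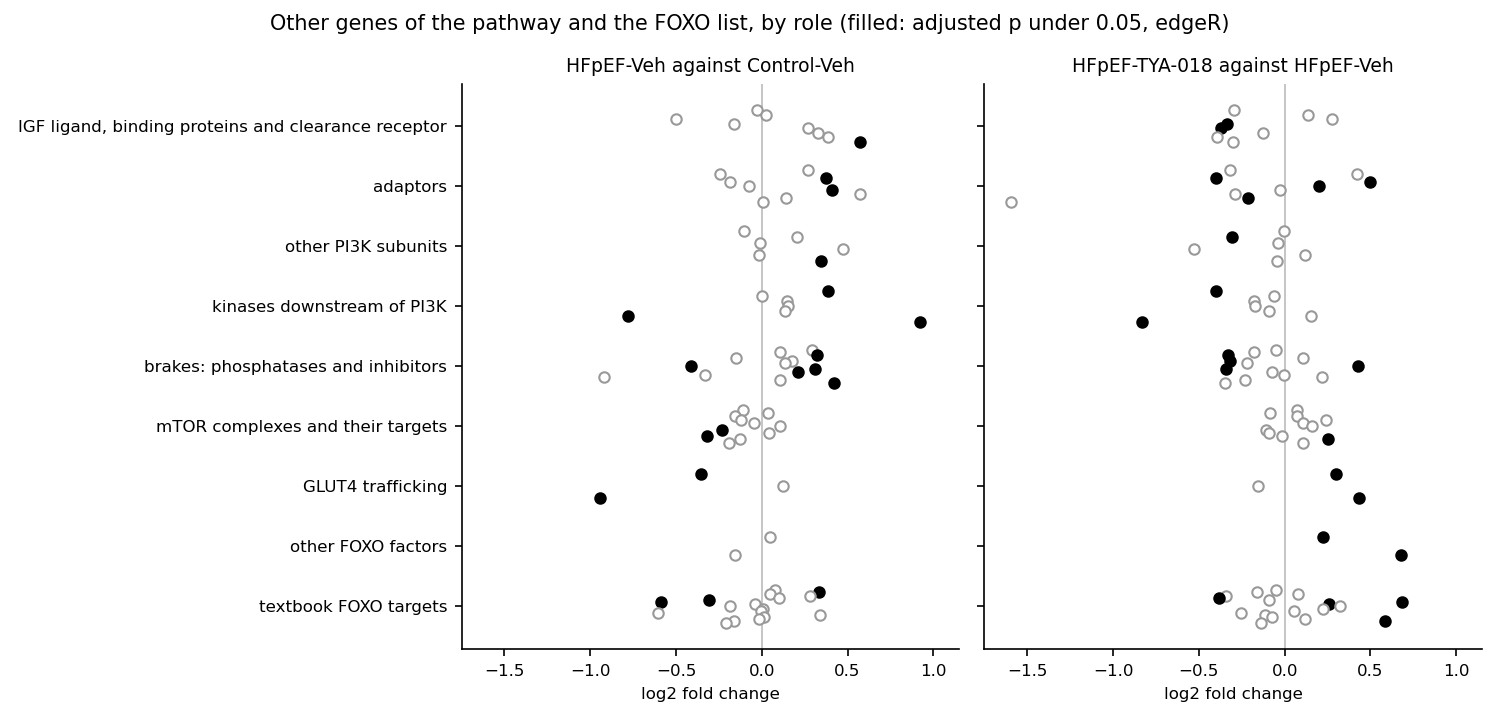
Each point is 1 gene of the pathway list or the FOXO list, placed by its edgeR log2 fold change on the x axis and grouped by role on the y axis, for HFpEF-Veh relative to Control-Veh (left) and HFpEF-TYA-018 against HFpEF-Veh (right); filled points have an adjusted p under 0.05. Sgk1 is the filled point at 0.92 on the left and at -0.83 on the right.

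FOXO factors are known to activate genes of muscle protein breakdown, autophagy and fuel choice, and 20 such genes and other FOXO factors were listed, of which 19 were tested and Sesn3 was listed at 0. In HFpEF-Veh relative to Control-Veh, 1 rose and 2 fell, where 21.2% of all tested genes were called. Fbxo32, the ubiquitin ligase atrogin-1, fell (-0.59 ± 0.10, edgeR adjusted p = 0.00273) and Bnip3, a mitophagy receptor, rose (0.34 ± 0.06, edgeR adjusted p = 0.00205). After TYA-018, 5 rose and 1 fell relative to HFpEF-Veh, where 19.3% of all were called. The median log2 change of the 19 was -0.0037 in the first and 0.05 in the second comparison. Without the factors Foxo4 and Foxo6, the 17 targets had a median of -0.05 in the second. There 8 of them were above 0 and 9 below, with 3 called higher and 1 lower. Fbxo32 (0.68 ± 0.10, edgeR adjusted p = 0.00189) and Trim63, the ubiquitin ligase MuRF1 (0.59 ± 0.11, edgeR adjusted p = 0.00508), rose, as did the factors Foxo6 (0.68 ± 0.16, edgeR adjusted p = 0.0122) and Foxo4 (0.22 ± 0.06, edgeR adjusted p = 0.0215). Foxo4 was lost without V2, V4 or T1 (edgeR adjusted p 0.0540 to 0.0689). HFpEF-TYA-018 against Control-Veh had 4 calls, 2 in each direction, where 5.86% of all were called. Pdk4, which restrains glucose oxidation, was at -0.86 ± 0.21 (edgeR adjusted p = 0.0322), held without T4 and lost without any other library (edgeR adjusted p 0.0510 to 0.0809). Cited2 was at -0.40 ± 0.10 (edgeR adjusted p = 0.0385), lost without C1, C3, T1, T2, T3 or T4 (edgeR adjusted p 0.0553 to 0.109), and Foxo4 at 0.27 ± 0.06 (edgeR adjusted p = 0.0234), lost without C3, C4, T1 or T3 (edgeR adjusted p 0.0506 to 0.0727).

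In HFpEF-TYA-018 against Control-Veh the other pathway calls were Grb14 (0.32 ± 0.06, edgeR adjusted p = 0.0148), Igfbp3 (-0.50 ± 0.11, edgeR adjusted p = 0.0232), Rictor (-0.34 ± 0.07, edgeR adjusted p = 0.0234), Rheb, the GTPase that activates mTOR complex 1 (0.27 ± 0.06, edgeR adjusted p = 0.0234), and Tbc1d4 (-0.51 ± 0.13, edgeR adjusted p = 0.0424). Grb14 was lost without T2 (edgeR adjusted p = 0.0502), and Tbc1d4 without each of C1 to C4 and T1 to T4 (edgeR adjusted p 0.0517 to 0.105). Igfbp3 was lost without C2, T1, T2 or T4 (edgeR adjusted p 0.0518 to 0.0631), Rictor without T1, T2 or T4 (edgeR adjusted p 0.0549 to 0.0692) and Rheb without C2, C4, T1 or T2 (edgeR adjusted p 0.0517 to 0.0698). Slc2a4 (-0.06 ± 0.06, edgeR adjusted p = 0.661), Sgk1 (0.09 ± 0.10, edgeR adjusted p = 0.645), and Grb10 (-0.03 ± 0.08, edgeR adjusted p = 0.883) were not called there.

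For each member called in HFpEF-Veh relative to Control-Veh or in HFpEF-TYA-018 against HFpEF-Veh, the 3 tested genes of at least 10 mean CPM most like it over the 12 libraries were listed by Pearson correlation, as a description over libraries that share groups, scaling and composition. For Insr they included Vldlr (0.969) and Atg2a (0.938), and for Igf1r Myo10 (0.963) and Thoc2 (0.937). For Akt2 they were Acad12 (0.964), Atp5a1 (0.961) and Oat (0.959). Foxo1 was most like Icam1 (0.928), Stx12 (0.921) and Sh3bp4 (0.917), and Igf1 most like Cd36 (0.917), Sumo2 (0.893) and Cnot7 (0.891).

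Which members were called changed between settings, and the cause was not tested. On counts, edgeR called 3 members in HFpEF-TYA-018 against HFpEF-Veh, and 1 with no filter on low counts, without mitochondrially encoded genes or with only the 2 groups in the fit. A scale close to the study's own was log2(TPM + 1) after rescaling to non-mitochondrial coding genes, without the study's filter on the share of samples with a gene detected. On it limma called Insr alone in HFpEF-Veh relative to Control-Veh (-0.40, adjusted p = 0.0380). In HFpEF-TYA-018 against HFpEF-Veh it called 0 members (1 at an unadjusted p under 0.05), where DESeq2 on counts called 4. On this rescaled scale Foxo1 in HFpEF-Veh relative to Control-Veh was 0.28 (limma adjusted p = 0.148), and Akt2 after TYA-018 against HFpEF-Veh was 0.19 (limma adjusted p = 0.701).

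**Figure D5:**
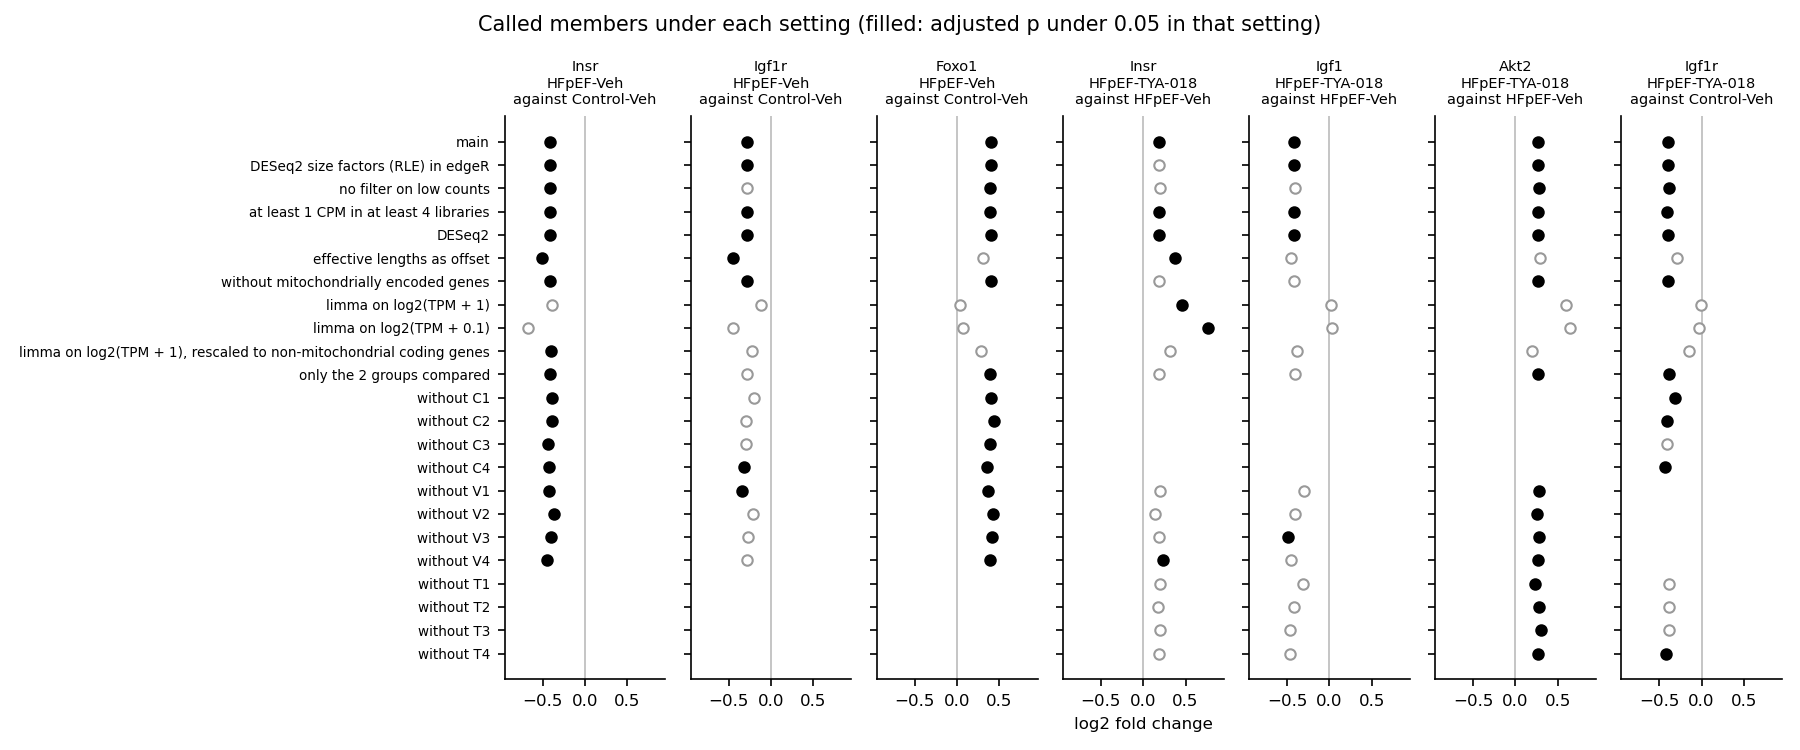
For the 7 calls of members, the x axis gives the log2 fold change and the y axis the setting, including fits without each library of the groups compared; filled points have an adjusted p under 0.05 in that setting. Insr in HFpEF-Veh relative to Control-Veh is filled in every fit on counts, and Akt2 in HFpEF-TYA-018 against HFpEF-Veh in every fit without 1 library.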

How the data were processed

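Left ventricular poly(A) RNA of 12 mice was sequenced with a stranded kit, 1 library per mouse. The authors trimmed reads with fastp and quantified them with salmon 1.6.0 against mouse GENCODE transcripts (GRCm38), with tximport summing to genes, per the methods and the submitters' processing notes; the labels name the build hg38, and labels and methods differ in read length and number. The authors deposited 3 tables of 29564 genes: estimated counts (not normalised), TPM, and effective lengths in bases. The effective lengths, deposited as another kind of value, entered tests only as an offset and are otherwise given as a description.

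Estimated counts were rounded and tested with edgeR 4.0.16 (R 4.3.3): filterByExpr left 14333 genes, TMM scaling, and a single quasi-likelihood model over the 12 libraries and 3 groups with 9 residual degrees of freedom. P-values were adjusted by Benjamini-Hochberg over all 14333 genes, and a gene was called under 0.05. CPM are TMM-normalised, and a fold change's ± is its standard error. Alternatives used DESeq2 1.42.0, limma 3.58.1 on log2(TPM + 1) or log2(TPM + 0.1), other filters and scalings, and fits without each library in turn. For a gene and comparison, fits without 1 library are given for libraries of the groups compared. The edgeR script alone was run on simulated counts. No column of values was left out (0).

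Groups came from the sample labels. All 10 members are described; of the other pathway genes and FOXO targets, at most 2 called genes with the smallest p per role and comparison are named, plus Slc2a4, Igf2, Mtor, Grb10 and Sgk1; some genes that this rule or the pattern likeness picks are not reported here. The members and gene lists were chosen with earlier results of these data known. Each group held a run of neighbouring animal numbers, so anything that followed those numbers (cage, day, order of handling) cannot be told apart from the group. Upstream sequences are from RefSeq (GRCm38.p6).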

Additional observations from a re-analysis of the deposited data

Results flagged for a closer look

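Among 30 sets of 4 libraries (10 genes in 3 groups), 2 held a library farther from the other 3 than Dixon's 95% critical value for 4 samples allows, where chance flags about 1 in 20. Igf1r in T4 was 14.5 CPM, with the nearest HFpEF-TYA-018 library at 13.3 CPM. Irs1 in C1 was 10.8 CPM, with the nearest Control-Veh library at 14.1 CPM. Without T4 the log2 change of Igf1r in HFpEF-TYA-018 against Control-Veh was -0.42, and without C1 that of Irs1 in HFpEF-Veh relative to Control-Veh was 0.15.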

How the results depend on the processing

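No paired analysis was possible because the groups had no animal number in common. Ranges without 1 library cover only libraries of the groups compared, although the third group shares the fit. Without C1, HFpEF-TYA-018 against HFpEF-Veh had 3 members and 18 pathway genes called. Without V2, HFpEF-TYA-018 against Control-Veh had 2 members called. The number of members called in HFpEF-Veh relative to Control-Veh was 3, and became 5 with DESeq2, 0 with limma on log2(TPM + 1) or log2(TPM + 0.1) (3 at an unadjusted p under 0.05 on each) and 1 with limma after rescaling to non-mitochondrial coding genes; leaving out 1 library gave 2 to 4. In HFpEF-TYA-018 against HFpEF-Veh it was 3, and became 1 with no filter on low counts, 1 with effective lengths as an offset, 1 without mitochondrially encoded genes, 1 with only the 2 groups compared in the fit and 0 on rescaled TPM (1 at an unadjusted p under 0.05); leaving out 1 library gave 1 to 2. In HFpEF-TYA-018 against Control-Veh it was 1, and became 2 with at least 1 CPM in 4 libraries, 2 with DESeq2, and 0 with the offset or on each of the 3 TPM scales (1, 2, 1 and 0 at an unadjusted p under 0.05, in the order offset, log2(TPM + 1), log2(TPM + 0.1), rescaled); leaving out 1 library gave 0 to 1. The cause was not tested. Unrescaled TPM shifted the median of all tested genes by -0.07, 0.17 and 0.08 with a pseudocount of 1 and by -0.17, 0.34 and 0.17 with 0.1, in the order of comparisons above; all genes called, in the same order, numbered 3033, 2767 and 840 and became 1444, 1221 and 206 with the offset and 1052, 739 and 97 when rescaled; the first and last became 172 and 9 with a pseudocount of 1 and 301 and 11 with 0.1, and the last became 1514 with DESeq2. Calls in HFpEF-TYA-018 against HFpEF-Veh were 1280 higher and 1487 lower, but 2228 and 68 on log2(TPM + 1), and in HFpEF-Veh relative to Control-Veh 1561 and 1472, but 51 and 121. Pathway genes called fell from 16 to 5, 1, 1, 4 and 10 in HFpEF-Veh relative to Control-Veh (offset, log2(TPM + 1), log2(TPM + 0.1), rescaled, 2 groups) and from 16 to 4, 9, 9 and 3 in HFpEF-TYA-018 against HFpEF-Veh (the first 4 of these); without 1 library they were 8 to 23 (10 or fewer without C2, C3, C4, V2 or V3) and 8 to 15 (10 or fewer without V2, T1 or T2). In HFpEF-TYA-018 against Control-Veh the 5 pathway and 4 FOXO list calls became 9 and 8 with DESeq2 and 0 and 0 with the offset and on each TPM scale; without 1 library the pathway calls fell to 0 (T2), 1 (T1), 2 (C2 or T4) or 3 (C4) and the FOXO list calls to 0 (C3, T1 or T3), 1 (C1, C4 or T2) or 2 (T4). The FOXO list calls after TYA-018 against HFpEF-Veh fell from 6 to 2 with the offset or when rescaled, and in HFpEF-Veh relative to Control-Veh from 3 to 0 on log2(TPM + 1) and log2(TPM + 0.1).

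Over members, 226 of the other settings' values kept direction and side of the threshold, 29 lost it and 5 gained it, and 197, 24 and 4 did so without 1 library. Directions turned as follows, on the log2 scale. HFpEF-Veh relative to Control-Veh gave, with the offset, Akt2 0.045, Foxo3 -0.17 and Pik3ip1 0.18; on log2(TPM + 1), Igf1 -0.045, Irs1 -0.0099, Pik3r1 -0.018, Akt1 -0.022, Foxo3 -0.23 and Grb10 -0.048; on log2(TPM + 0.1), Igf1 -0.079, Irs1 -0.040, Pik3r1 -0.020, Akt1 -0.026, Foxo3 -0.36 and Grb10 -0.072; rescaled, Akt2 0.11, Foxo3 -0.11, Mtor 0.044 and Pik3ip1 0.22. HFpEF-TYA-018 against HFpEF-Veh gave, with the offset, Igf1r 0.17, Akt1 -0.011, Foxo3 0.21 and Pik3ip1 -0.033; on log2(TPM + 1), Igf1r 0.11, Igf1 0.017, Irs1 0.085, Irs2 0.081, Pik3r1 0.19, Foxo1 0.12, Foxo3 0.40, Grb10 0.18, Igf2 0.29, Igfbp3 0.16 and Pik3cb 0.092; on log2(TPM + 0.1), Igf1r 0.42, Igf1 0.036, Irs1 0.26, Irs2 0.24, Pik3r1 0.26, Foxo1 0.24, Foxo3 0.61, Grb10 0.26, Igf2 0.35, Igfbp3 0.18 and Pik3cb 0.19; rescaled, Igf1r 0.084, Akt1 -0.019, Foxo3 0.17 and Pik3ip1 -0.055. HFpEF-TYA-018 against Control-Veh gave, with the offset, Foxo3 0.040 and Slc2a4 0.21; on log2(TPM + 1), Insr 0.066, Foxo3 0.17, Grb10 0.13, Igf2 0.017 and Slc2a4 0.41; on log2(TPM + 0.1), Insr 0.092, Foxo3 0.25, Grb10 0.19, Igf2 0.018 and Slc2a4 0.43; rescaled, Foxo3 0.061, Grb10 0.0018 and Slc2a4 0.24. Without 1 library, values that crossed 0 ranged in HFpEF-Veh relative to Control-Veh from -0.049 to 0.068 for Foxo3, -0.037 to 0.15 for Igf1, -0.091 to 0.032 for Igf2 and -0.069 to 0.0027 for Mtor; in HFpEF-TYA-018 against HFpEF-Veh from -0.0080 to 0.054 for Akt1 and -0.39 to 0.035 for Irs2; in HFpEF-TYA-018 against Control-Veh from -0.047 to 0.093 for Irs1, -0.11 to 0.0055 for Foxo3, -0.12 to 0.16 for Pik3r1 and -0.083 to 0.038 for Grb10. None of these was called where its direction turned, except Foxo3 on log2(TPM + 1) and log2(TPM + 0.1) in HFpEF-TYA-018 against HFpEF-Veh.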
